A study of Mus musculus with 24 samples.

Results

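Cd34, Plvap, Pecam1, Cdh5, Emcn, Sox17, Sox18, Cav1 and Cav2 were followed as a set of 9 genes, chosen as genes of capillarization and of continuous endothelium, among the 56205 gene identifiers of a mouse liver RNA-seq count table. All 9 were found by symbol and all 9 passed the filter on low counts. The libraries came from the whole liver of C57BL/6J mice that had been fed for 20 weeks either a diet rich in palm oil, fructose and cholesterol (FFD, n = 12) or a control diet (n = 12). Both sexes were used, but the labels gave neither sex nor age for a library. The labels name no altered allele and no drug in either group, and the liver was not divided into cell types, so that fewer cells of a type and less RNA per cell cannot be told apart in any value below.

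The endothelium that lines the liver sinusoids differs from that of other capillary beds. Its cells are perforated by open fenestrae, lie on a sparse basement membrane and take up waste molecules through scavenger receptors such as stabilin-2. In chronic liver injury these cells can lose their fenestrae and gain features of ordinary continuous capillaries, a change called capillarization. Cd34, a sialomucin of capillary and large vessel endothelium that is also carried by blood progenitors and some fibroblasts, is the classical marker of that change. Plvap builds the diaphragms that close fenestrae and caveolae, Cav1 and Cav2 form the caveolae, Pecam1 and Cdh5 hold endothelial cells together, Emcn coats venous and capillary endothelium, and Sox17 and Sox18 are transcription factors of the developing and arterial endothelium.

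Library totals lay between 14468418 and 22112552 counts. Alb, the major hepatocyte transcript, stood at 45211 CPM (counts scaled to the size of a library) on FFD and at 74355 CPM in the controls. The libraries fell into 2 sets by Xist, the RNA of the inactive X chromosome: in 12 libraries, 6 of each diet, Xist had 2664 to 6285 counts and the Y-linked gene Ddx3y had 0, and in the other 12 Xist had 0 to 3 counts and Ddx3y had 448 to 1016. They are called the Xist-high and Xist-low sets, and the diet effects on the 9 genes are also read within each set. A pair of libraries stood apart in their scaling factors (trimmed mean of M-values, TMM): FFD replicate 9 with the highest, 1.34, and control replicate 10 with the lowest, 0.679. Both were in the Xist-low set, and calls among the 9 genes that rest on them are given with and without them.

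The promoter sequences of the gene with the largest diet effect, Cd34, and of the neighbours Cav2 and Cav1, of which Cav2 alone passed the threshold, are shown here with the 250 bases before the RefSeq start of each gene, on the plus strand of GRCm38.p6. RefSeq promoter windows were at hand for 4 of the 9 genes, the fourth being Emcn. The windows were searched on both strands for AGGAAG (ETS-type), ACAAT (SOX-type), CACCC (KLF-type) and GATAA (GATA-type), none of which overlapped another in the windows shown, and capitals mark every match.
Cd34, chr1:194938571-194938820: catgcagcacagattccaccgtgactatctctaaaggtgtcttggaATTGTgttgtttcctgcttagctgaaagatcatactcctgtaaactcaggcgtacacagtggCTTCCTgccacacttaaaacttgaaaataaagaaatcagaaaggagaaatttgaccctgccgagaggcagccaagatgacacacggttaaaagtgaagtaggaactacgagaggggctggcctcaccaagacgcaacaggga
Cav2, chr6:17280935-17281184: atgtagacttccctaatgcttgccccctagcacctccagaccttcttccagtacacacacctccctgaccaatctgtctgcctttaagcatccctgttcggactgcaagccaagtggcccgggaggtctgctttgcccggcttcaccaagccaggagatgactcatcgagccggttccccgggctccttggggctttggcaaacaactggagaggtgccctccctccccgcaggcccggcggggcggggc
Cav1, chr6:17306085-17306334: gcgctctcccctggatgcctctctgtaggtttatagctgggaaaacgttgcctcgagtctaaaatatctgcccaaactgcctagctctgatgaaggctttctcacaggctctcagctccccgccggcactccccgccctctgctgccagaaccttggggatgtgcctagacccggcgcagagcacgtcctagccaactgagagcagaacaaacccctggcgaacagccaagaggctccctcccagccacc
The Cd34 window held 1 SOX-type and 1 ETS-type match, and the Emcn window held 1 SOX-type and 2 ETS-type matches. The Cav2 window and this Cav1 window held none of the 4 motifs, and a downstream Cav1 window held 1 GATA-type match. Over all 32851 promoter windows of the same length, 29.5% held the ETS-type letters, 27.7% the SOX-type, 52.0% the KLF-type and 22.6% the GATA-type, so that a match in a single window is common.

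Across the 24 libraries, 5 of the 9 genes were called higher on FFD and none lower, at an adjusted p of at most 0.01 with an absolute log2 fold change over 0.5. They were Cd34, Plvap, Emcn, Sox18 and Cav2. Of all 17913 genes tested, 13.2% were called higher and 4.99% lower by the same rule. The median log2 fold change of the 9 genes was 0.53 beside −0.03 for all genes tested, and the fold changes of all 9 were above 0, from 0.11 to 2.07. With library totals alone as the scaling, the median of all genes rose to 0.26, and all of the 9 genes except Cav1 were called higher, beside 21.4% of all genes. With FFD replicate 9 and control replicate 10 both left out, 4 of the 9 were called higher, all of the 5 above except Cav2. Of all 17913 genes, 2126 were called higher in that fit. For none of the 9 genes did the 12 FFD libraries all lie above the 12 controls, a separation that 1.48% of all genes reached. As markers of other cell types moved with the diet as well, their values are given after the genes themselves.

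Cd34 had the largest fold change among the 9. Its lowest, median and highest values were 0.526, 1.31 and 3.23 CPM in the controls and 2.84, 4.49 and 27.6 CPM on FFD. The groups overlapped narrowly, with 10 of the 12 FFD libraries above the highest control. The counts behind these values were small, 7 to 70 in a control library and 57 to 652 on FFD. The mean was 1.62 ± 0.955 CPM (SD, n = 12) in the controls and 6.91 ± 6.83 CPM (SD, n = 12) on FFD, a log2 fold change of 2.07 (SE 0.38, adjusted p = 0.000144). The highest value belonged to FFD replicate 9, and the next FFD library stood at 8.32 CPM. Without replicate 9 the log2 fold change was 1.63 (adjusted p = 0.00015).

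FFD replicate 9 was the highest of the 12 FFD libraries not only in Cd34 but also in Emcn, Sox17, Sox18, Cav1 and Cav2, while it ranked 4 in Pecam1, 5 in Cdh5 and was the lowest in Plvap with 72.5 CPM. In the same library the mesothelial markers summed to 55.8 CPM, the highest on FFD, of which Krt19, a keratin that biliary cells share, gave 48.1 CPM. The mesothelial markers Upk3b and Msln ranked 11 and 9 there. Dpt and Pdgfra, which mark fibroblasts, were at 58.7 and 33.8 CPM, each the highest on FFD. Col1a1 in replicate 9 ranked 3 (189 CPM), and the sum of 13 stellate or fibroblast genes was highest in FFD replicate 10, not in replicate 9. The sinusoidal receptor Stab2 (38.8 CPM) and Alb (24224 CPM) were the lowest on FFD. The part of these other cells in the values of replicate 9 was not tested.

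Plvap was the most abundant of the 9 genes. Its lowest, median and highest values were 42.7, 71.6 and 93.9 CPM in the controls and 72.5, 108 and 131 CPM on FFD. The ranges overlapped, and 9 of 12 FFD libraries exceeded the highest control. The means of 70.5 ± 16.1 and 107 ± 19.0 CPM (SD, n = 12 each) differed by a log2 fold change of 0.60 (SE 0.12, adjusted p = 0.000428). In contrast to Cd34, the value of Plvap without FFD replicate 9 was slightly larger, 0.66.

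Emcn, the endomucin that covers venous and capillary endothelium, was lower in abundance. It ranged from 1.64 over a median of 2.63 to 3.97 CPM in the controls and from 2.43 over 3.90 to 7.36 CPM on FFD. The groups overlapped widely, with 5 FFD libraries above the highest control. FFD exceeded control by 0.62 on the log2 scale (SE 0.17, adjusted p = 0.006). This call was made in 16 of the 24 fits that each left out 1 library. Without FFD replicate 9 the log2 fold change was 0.54 (adjusted p = 0.012).

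Neither junction gene was called in the fit over all 24 libraries. Pecam1, an adhesion molecule between neighbouring endothelial cells, ran from 11.6 over 19.2 to 27.9 CPM in the controls and from 19.3 over 24.1 to 30.3 CPM on FFD. The upper ends of both groups nearly met, and the log2 fold change of 0.32 (SE 0.12, adjusted p = 0.041) did not pass. Cdh5, the cadherin of endothelial adherens junctions, ran from 12.1 over 23.1 to 32.5 CPM in the controls and from 25.8 over 29.1 to 44.8 CPM on FFD. Of the 12 controls 8 lay below the lowest FFD library, yet the log2 fold change of 0.45 (SE 0.15, adjusted p = 0.0162) missed both parts of the rule. It passed in 2 of the 24 fits without 1 library, those without control replicate 3 or 5.

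Of the 2 SOX factors 1 was called, and the difference between them was not tested. Sox18 ran from 6.49 over 8.59 to 13.98 CPM in the controls and from 11.4 over 14.5 to 23.5 CPM on FFD, with 7 FFD libraries above the highest control. Its log2 fold change was 0.62 (SE 0.13, adjusted p = 0.000431), and it was called in each of the 24 fits without 1 library, as were Cd34 and Plvap. Sox17 ran from 1.46 over 2.24 to 3.15 CPM in the controls and from 1.90 over 3.06 to 4.52 CPM on FFD. Its groups overlapped widely, and its log2 fold change of 0.40 (SE 0.16, adjusted p = 0.0486) did not pass.

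The 2 caveolins are neighbours on one strand of chromosome 6, with Cav2 at chr6:17281185-17289115 and Cav1 at chr6:17306335-17341452 in GRCm38, 17220 bp apart. Cav2 ran from 1.68 over 2.999 to 4.70 CPM in the controls and from 3.11 over 4.10 to 6.51 CPM on FFD. The ranges overlapped, and FFD exceeded control by 0.53 on the log2 scale (SE 0.15, adjusted p = 0.00624). This call was made in 17 of the 24 fits without 1 library, and not without FFD replicate 9 (0.48, adjusted p = 0.012), without control replicate 10 (0.49, under the fold threshold) or without both (0.43, adjusted p = 0.019). Cav1 ran from 1.78 over 3.31 to 7.37 CPM in the controls and from 1.12 over 3.27 to 13.8 CPM on FFD. The medians were close, and the diets differed by 0.11 on the log2 scale (SE 0.33, adjusted p = 0.81). Without FFD replicate 9, which held the highest value, it turned to −0.19 (adjusted p = 0.65).

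**Figure D1:**
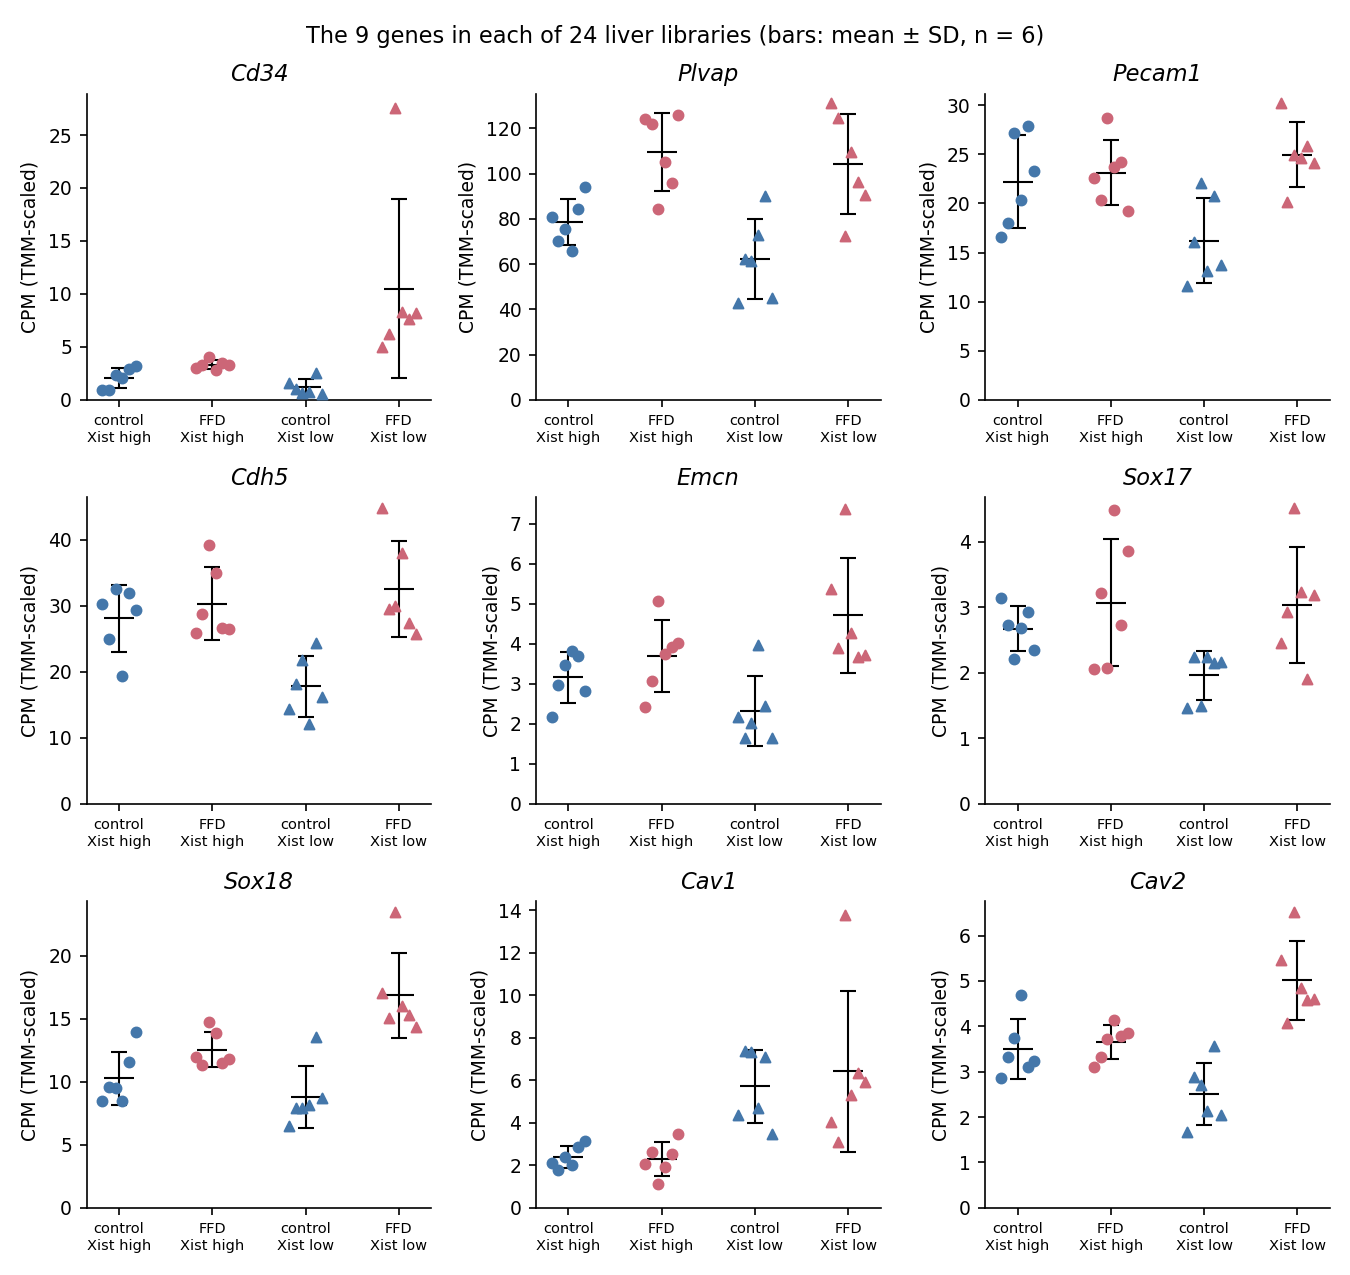
TMM-scaled CPM (vertical axis of each panel, starting at 0) of the 9 genes in 24 liver libraries, with controls in blue, FFD in red, the Xist-high set as circles and the Xist-low set as triangles; black bars show mean ± SD of 6 libraries. In the Xist-low set all 6 FFD libraries lie above all 6 controls for Cd34, Cdh5, Sox18 and Cav2, Cav1 differs by set more than by diet, and one FFD library reaches 27.6 CPM in Cd34.

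Levels were compared between genes per kilobase of exon length. In the controls Plvap was highest at 35.5 ± 8.12 CPM per kb (SD, n = 12), followed by Sox18 (5.89 ± 1.44), Cdh5 (5.46 ± 1.68), Pecam1 (3.09 ± 0.855), Cav1 (1.18 ± 0.616), Cav2 (0.899 ± 0.247), Emcn (0.506 ± 0.156), Sox17 (0.486 ± 0.107) and Cd34 (0.222 ± 0.131). The neighbours Sox18 and Cdh5, Cav1 and Cav2, and Emcn and Sox17 differed by less than the larger of their SDs. On FFD, Cd34 stood at 0.947 ± 0.937 CPM per kb (SD, n = 12), above Emcn (0.777 ± 0.233) and Sox17 (0.640 ± 0.186) but within its own spread of both.

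The diet effect was then read within each Xist set. Within the Xist-high set none of the 9 genes was called higher (0 of 9, beside 2.9% of all genes), and within the Xist-low set 7 were (beside 14.4%), namely Cd34, Plvap, Pecam1, Cdh5, Emcn, Sox18 and Cav2. With FFD replicate 9 left out of the Xist-low set, Pecam1 lost its call (adjusted p = 0.011) and 6 remained, beside 2261 of 17906 genes. Without control replicate 10 the 7 were called, beside 2674 of 17906 genes. In the Xist-high set no gene of the 9 had its 6 FFD libraries all above the 6 controls, which 3.51% of all genes reached, and in the Xist-low set Cd34, Cdh5, Sox18 and Cav2 did, beside 12.6% of all genes. Of the 9 genes, 3 had a diet effect that differed between the sets by the interaction term at an adjusted p of at most 0.05, each with the larger effect in the Xist-low set. Of all genes 6.18% passed in that direction and 4.04% in the other.

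For Cd34, the Xist-high libraries had a lowest, median and highest value of 0.934, 2.22 and 3.23 CPM on control diet and 2.84, 3.26 and 3.997 CPM on FFD, which overlapped. In the Xist-low set the values were 0.526, 0.887 and 2.55 CPM on control diet against 4.97, 7.95 and 27.6 CPM on FFD, which did not. The log2 fold changes were 0.69 (adjusted p = 0.106) and 3.14 (adjusted p = 0.000176), and they differed by 2.44 (SE 0.57, adjusted p = 0.00695). Without FFD replicate 9 the Xist-low log2 fold change was 2.57 (SE 0.33, adjusted p = 7.5e-05) and the difference was 1.88 (adjusted p = 0.00921).

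Cav2 and Cdh5 showed the same order. For Cav2 the Xist-high values ran from 2.85 over 3.27 to 4.70 CPM in the controls and from 3.11 over 3.76 to 4.13 CPM on FFD, while the Xist-low values ran from 1.68 over 2.42 to 3.57 and from 4.07 over 4.73 to 6.51 CPM. The FFD and control libraries interleaved in the first set and were apart in the second. The difference of the log2 fold changes was 0.93 (SE 0.24, adjusted p = 0.013), and 0.85 (adjusted p = 0.0232) without FFD replicate 9.

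For Cdh5 the Xist-high values ran from 19.4 over 29.9 to 32.5 CPM in the controls and from 26.0 over 27.7 to 39.2 CPM on FFD, and the Xist-low values from 12.1 over 17.1 to 24.4 and from 25.8 over 29.7 to 44.8 CPM. On FFD the sets were alike in median, and the Xist-low controls were the lowest group. The difference of the log2 fold changes was 0.76 (SE 0.23, adjusted p = 0.0388). For Sox18 the difference was 0.65 (SE 0.22, adjusted p = 0.0636), which did not pass, and for Pecam1 it was 0.56 (SE 0.22, adjusted p = 0.10). With library totals as scaling both passed, at 1.003 (adjusted p = 0.0107) and 0.89 (adjusted p = 0.0137). For Emcn it was 0.82 (SE 0.31, adjusted p = 0.10), which passed, of the settings tried, without control replicate 10 (1.01, adjusted p = 0.0225) or with library totals as scaling (1.20, adjusted p = 0.00878). The Plvap log2 fold change was 0.49 (SE 0.12, adjusted p = 0.0127) in the Xist-high set, which narrowly missed both parts of the rule. In the Xist-low set it was 0.76 (adjusted p = 0.00547), and the difference of 0.26 (SE 0.23, adjusted p = 0.54) did not pass. Sox17 had 0.21 (adjusted p = 0.546) and 0.66 (adjusted p = 0.0313), with a difference of 0.44 (adjusted p = 0.40).

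**Figure D2:**
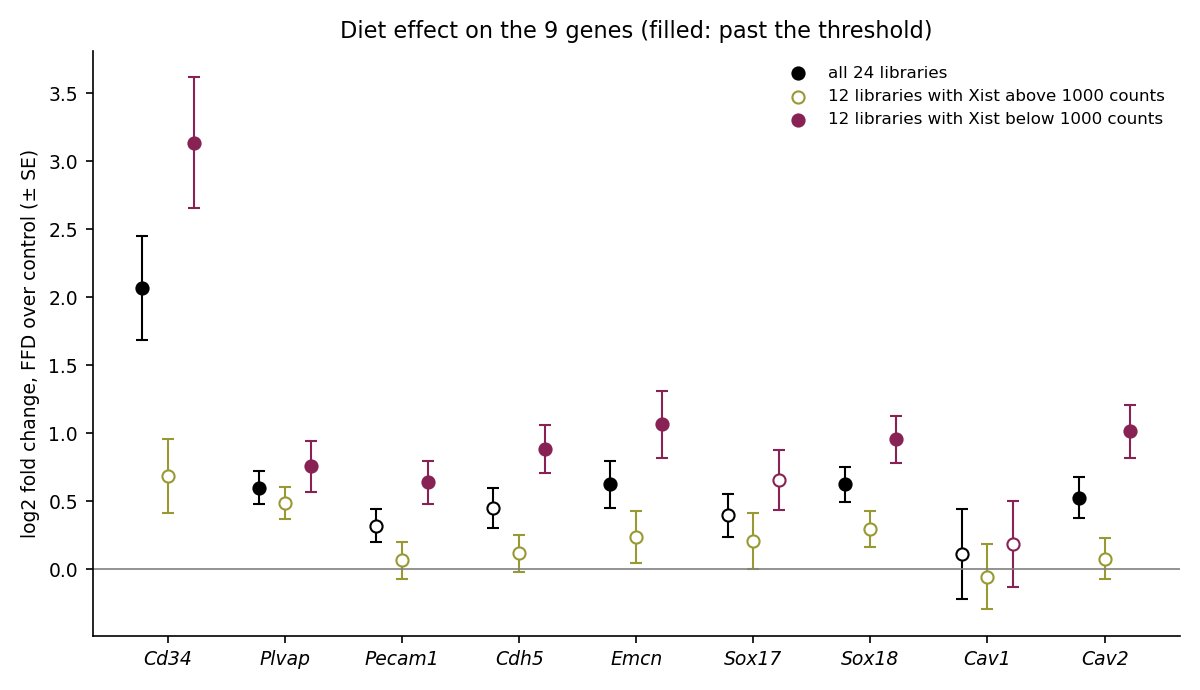
Log2 fold change of FFD over control (vertical axis, ± SE) of the 9 genes in all 24 libraries (black), the 12 Xist-high libraries (olive) and the 12 Xist-low libraries (purple), with filled points past the threshold. No olive point is filled, beside 2.9% of all genes called higher in that set, and 7 purple points are, beside 14.4%. Cd34 lies at 0.69 in the Xist-high set and at 3.14 in the Xist-low set.

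The values of Cav1 lay apart by set rather than by diet. Its Xist-high values ran from 1.78 over 2.26 to 3.14 CPM in the controls and from 1.12 over 2.28 to 3.46 CPM on FFD. Its Xist-low values ran from 3.49 over 5.88 to 7.37 CPM in the controls and from 3.09 over 5.63 to 13.8 CPM on FFD. All 6 Xist-low controls lay above all 6 Xist-high controls. In a fit with set and diet together, a comparison added after these values were seen, Cav1 was higher in the Xist-low set by 1.37 on the log2 scale (SE 0.21, adjusted p = 4.5e-05), and the set terms of the other 8 genes lay between −0.27 and 0.59 with adjusted p-values from 0.224 to 0.984. At an adjusted p of 0.05 the set term passed in 1 of the 9 genes and in 12.1% of all genes, a share near that of the 9.

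Ratios of counts within a library are free of the scaling between libraries, and they are given as a description. The Cav2 to Cav1 ratio had medians of 1.45 in Xist-high controls, 1.51 in Xist-high FFD, 0.424 in Xist-low controls and 0.844 in Xist-low FFD libraries. The Xist-low controls, from 0.370 to 0.585, lay below every Xist-high library, of which the lowest was at 1.03. The Cd34 to Pecam1 ratio had medians of 0.0944, 0.142, 0.0601 and 0.324 in the same order, and its Xist-low FFD libraries, from 0.164 to 1.11, lay above every control, of which the highest was at 0.139. Sox18 to Sox17 ratios overlapped between diets in both sets, with medians of 3.72, 3.87, 4.22 and 5.17.

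**Figure D3:**
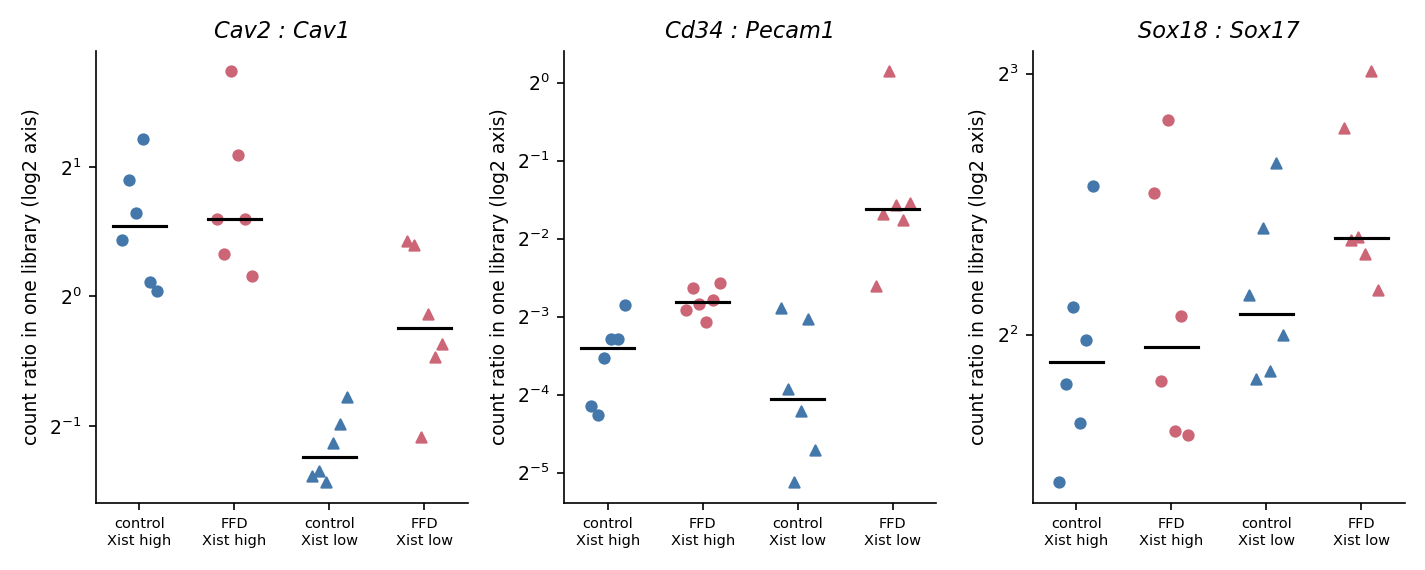
Ratio of the counts of 2 genes in the same library (vertical axis, log2 scale) for Cav2 to Cav1, Cd34 to Pecam1 and Sox18 to Sox17, by diet and Xist set, with 6 libraries a column and the median as a black line. The Cav2 to Cav1 ratio has its lowest median, 0.424, in Xist-low controls, and the Cd34 to Pecam1 ratio its highest, 0.324, in Xist-low FFD libraries.

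Variation shared by the 9 genes beyond diet and set was read after the means of both were removed. Over the 24 libraries 36 pairs were compared, with Pearson's r between −0.27 and 0.69 and a median of 0.27. By a permutation test within diet and set, with adjustment over the 36 pairs, 1 pair passed, Pecam1 with Cdh5, at r = 0.69 (unadjusted p = 0.00096, adjusted p = 0.0346) and Spearman's rho = 0.65 (unadjusted p = 0.00182, adjusted p = 0.0655), and its r stayed at 0.65 once the 2 libraries most distant from the Pecam1 median were dropped. Both genes act at the endothelial junction. The next pair, Cd34 with Cav1, had r = 0.67 and rho = 0.49 (permutation p = 0.00482 and 0.0203, adjusted p = 0.0863 and 0.146), and its r came to 0.41 once the 2 libraries most distant from the Cd34 median were dropped.

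The 10 genes most like the mean pattern of the 9, by Pearson's r over the 24 libraries after removal of the same means, were taken from 13908 genes with a mean of at least 10 counts in a library. They were Cyth3 (0.90), ENSMUSG00000120992 (0.87), Mcam (0.86), Angpt1 (0.86), Leprot (0.85), Adam15 (0.83), Sparc (0.83), Rhoj (0.82), Flna (0.81) and Tagln2 (0.80). These libraries share their scaling and cell makeup, so the values are a description. FFD replicate 9, extreme in several of the 9 genes, was included, and the ranking was not made without it. Among the 9 genes themselves the correlation with that mean, which contains the gene, ran from 0.30 for Plvap to 0.84 for Sox18.

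Other endothelial genes were read from lists chosen by role. Each count is read beside the 13.2% of all genes called higher and the 4.99% called lower, or 21.4% higher with library totals alone. Of 32 other genes of endothelium at large, 5 were higher on FFD and none lower, with a median log2 fold change of 0.22. Cd93 (1.44, SE 0.22), a C-type lectin-like receptor, Ecscr (0.996, SE 0.22), Icam2 (0.81, SE 0.15), an adhesion molecule, and the ETS factor Fli1 (0.78, SE 0.18) changed most. Leukocyte markers, given below, rose on FFD as well, and the part of leukocytes in these values was not tested. The receptors Tie1 and Tek and the ETS factor Erg, which define endothelium, were at 21.2, 11.03 and 7.36 CPM on FFD and at 17.2, 10.9 and 6.21 CPM in the controls, and none was called. The summed level of the list ran from 505 to 635 CPM on FFD and from 366 to 590 CPM in the controls. With library totals alone, 15 of the 32 were called higher.

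Capillary, venous and arterial endothelial genes formed the next list. Of 26 tested, 14 were called higher and none lower, with a median of 1.04, and 11 were called without FFD replicate 9. The peptide apelin and its receptor had the largest fold changes at low levels, Apln at 0.584 CPM on FFD and 0.0326 CPM in the controls and Aplnr at 0.555 and 0.0289 CPM. Ace, the angiotensin-converting enzyme, stood at 5.94 against 1.54 CPM (log2 fold change 1.94, SE 0.28), and the leukocyte adhesion molecule Sele at 0.475 against 0.121 CPM. Vwf, the von Willebrand factor of large vessels, had a log2 fold change of 0.90 (SE 0.25, adjusted p = 0.0068), and Selp was not called (0.41, adjusted p = 0.17). The list summed to between 206 and 348 CPM on FFD and between 110 and 212 CPM in the controls, and FFD replicate 9 was the highest. Within the Xist-high set 2 of the 26 were called higher, beside 2.9% of all genes there. Within the Xist-low set 14 were, beside 14.4%.

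Sinusoidal genes were called in both directions. Of 24 tested, 4 were higher and 2 lower, with a median of 0.04. Over all genes 13.2% were higher and 4.99% lower, with a median of −0.03, so the list lay near the background. The scavenger receptors Stab2 (0.57, SE 0.16) and Cd36 (1.04, SE 0.30), the cytokine Il1a (0.92, SE 0.26) and the lectin Clec1b (0.83, SE 0.18) were higher. The part of leukocytes and other cells in these 4 values was not tested. The lectin Cd209b was lower at a level near 0, 0.0260 CPM on FFD against 0.250 CPM in the controls with a mean of 2.46 counts in a library, and Bmp2, the endothelial signal for hepcidin, fell by 0.68 (SE 0.16). Stab1, a further scavenger receptor, was at 71.0 on FFD and 69.3 CPM in the controls, and the sinusoidal lectin Clec4g was at 39.8 against 55.0 CPM (adjusted p = 0.039), neither past the threshold. The list summed to 447 to 859 CPM on FFD and 391 to 892 CPM in the controls, and within FFD it was lowest in replicate 9, where Cd34 was highest.

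Next came the partners of the 9 genes in caveolae and junctions. Of 8 tested genes of the caveolar coat beside the caveolins, 4 were higher and none lower, namely Ehd4 (1.46, SE 0.13) and Ehd2 (1.30, SE 0.22), ATPases of the caveolar neck, and the cavins Cavin3 (1.23, SE 0.30) and Cavin1 (1.05, SE 0.18). Cavin2 was at 16.3 on FFD and 15.7 CPM in the controls (0.05, adjusted p = 0.86). Of 15 junction partners of Cdh5, none was called by edgeR, with a median of 0.08. The catenins Ctnnb1 and Ctnnd1 had log2 fold changes of 0.08 each, and Ctnna1 of 0.31 (adjusted p = 0.00017), under the fold threshold. With library totals alone, 3 of the 15 were called higher.

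Of 20 genes of VEGF and angiopoietin signalling, 3 were higher and 1 lower, beside 13.2% and 4.99% of all genes. The lymphatic growth factor Vegfc (0.65, SE 0.09), the vasodilator Adm (0.64, SE 0.18) and Angptl2 (0.54, SE 0.15) were higher, while Vegfa, the main endothelial growth factor, fell by 0.56 (SE 0.12) from 127 to 86.3 CPM. Vegfb was not called (0.26, adjusted p = 0.11). With library totals alone, 12 of the 20 were called higher and none lower. Of 23 SOX, ETS, KLF, GATA and related factors, 8 were higher and none lower, led by Lmo2 (1.29, SE 0.16), Heyl (1.22, SE 0.23), Lyl1 (1.19, SE 0.26) and Bcl6b (1.04, SE 0.19), and Sox7, the close relative of Sox17 and Sox18, was not called (0.07, adjusted p = 0.76). Lmo2 and Lyl1 are also expressed by blood cells.

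A continuous basement membrane is a feature of ordinary capillaries. Of 11 of its genes, 10 were higher on FFD and none lower, with a median of 0.84. Nid1 (1.58, SE 0.19), Sparc (1.57, SE 0.20), Col4a1 (1.55, SE 0.17) and Col4a2 (1.43, SE 0.20) had the largest changes, and the endothelial laminin chain Lama4 rose by 0.69 (SE 0.17). The list summed to 349 to 991 CPM on FFD and 130 to 344 CPM in the controls, with replicate 9 the highest on FFD. Other cells of the liver, stellate cells among them, make these proteins too.

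**Figure D4:**
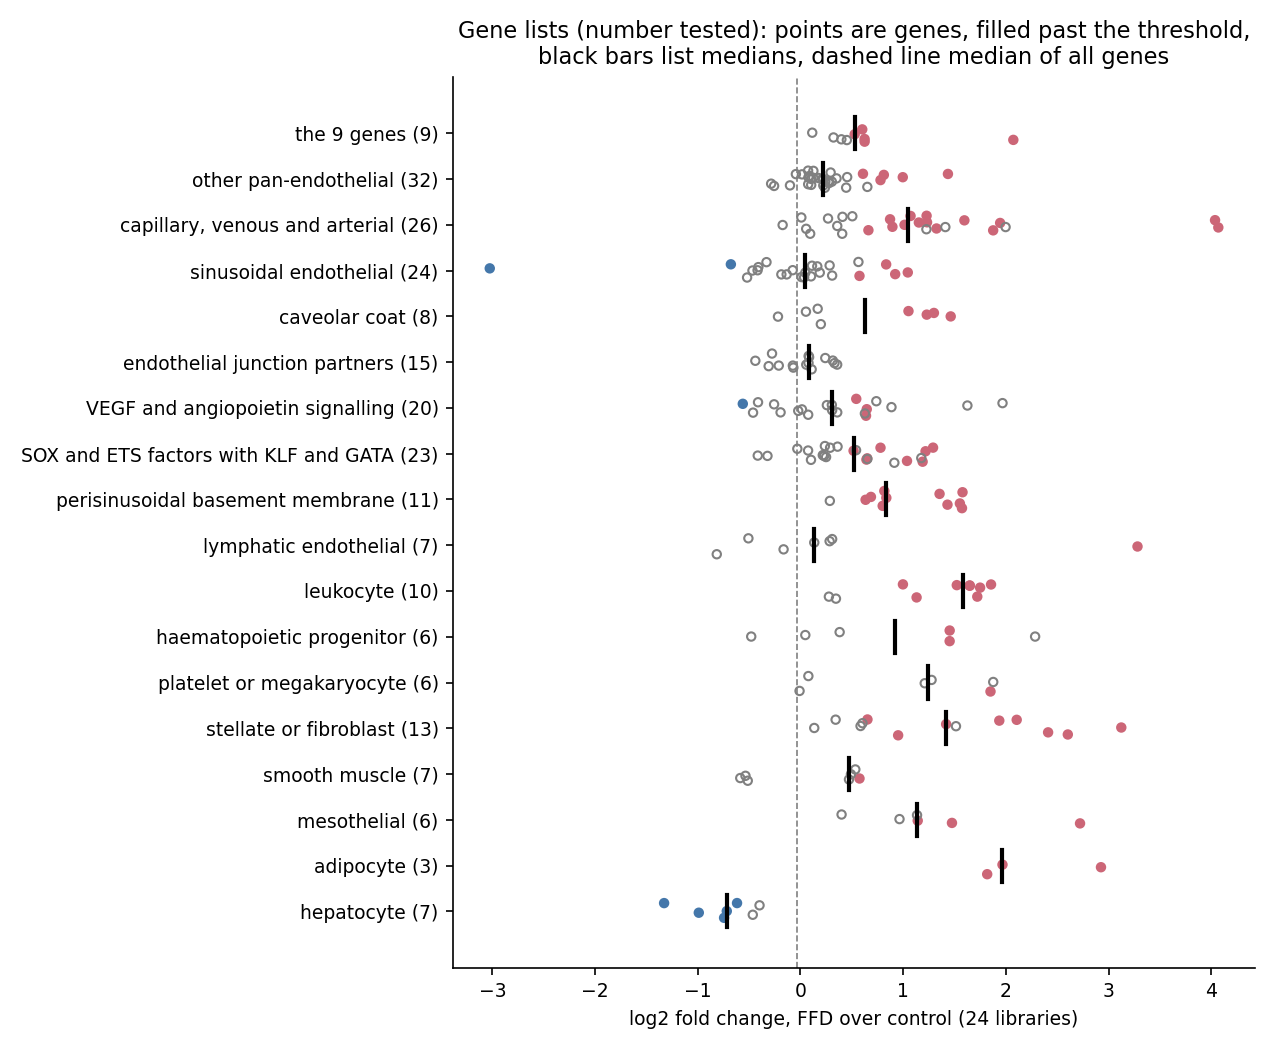
Log2 fold change of FFD over control (horizontal axis) of each tested gene, by list (rows, with the number tested), with genes past the threshold filled in red (higher) or blue (lower), list medians as black bars and the median of all genes as a dashed line. The 9 genes have a median of 0.53, below the 1.04 of capillary, venous and arterial genes and above the 0.22 of endothelium at large, and some genes stand in more than one list.

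Markers of other cell types moved with the diet beside the 9 genes. Of 10 leukocyte genes, 8 were higher, and their sum ran from 453 to 1023 CPM on FFD and from 105 to 398 CPM in the controls. Lyz2 (1.86), Laptm5 (1.75), Itgb2 (1.72) and Cd52 (1.65) led, and Ptprc, which defines leukocytes, rose by 1.13 on the log2 scale. Of 13 stellate or fibroblast genes, 8 were higher, with sums of 424 to 1075 against 171 to 509 CPM, led by Col1a1 (3.12), Col3a1 (2.60), Col1a2 (2.41) and Lum (2.11). Of 6 mesothelial genes, 3 were higher (Krt19, Wt1 and Gpm6a), with sums of 5.01 to 55.8 against 2.21 to 10.2 CPM. Of 6 tested genes of blood progenitors, which can carry Cd34, Spi1 and Flt3 were higher and Kit was not (0.05), with sums of 62.1 to 107 against 58.9 to 108 CPM.

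These marker sums are given within the sets as well, with no test of the difference between them. The leukocyte sum had medians of 485 and 246 CPM on FFD and control diet in the Xist-high set and of 664 and 121 CPM in the Xist-low set, and the fibroblast sum had medians of 547 and 325 against 997 and 232 CPM. The sum of the other genes of endothelium at large had medians of 535 and 547 CPM on FFD and control diet in the Xist-high set and of 555 and 452 CPM in the Xist-low set, and the sinusoidal sum had medians of 778 and 819 against 697 and 525 CPM. Of 7 hepatocyte genes, 5 were lower on FFD, led by Tat, Cps1, Apoa1 and Alb, and none was higher. Their sum had medians of 78487 CPM on FFD and 111880 CPM on control diet in the Xist-high set and of 46045 and 87177 CPM in the Xist-low set. The part of these changes in the values of the 9 genes and of the endothelial lists was not tested.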

How the data were processed

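Whole liver RNA of 24 mice (12 FFD, 12 control) was sequenced after poly(A) selection. The deposited table held raw counts per gene. The submitters' processing notes name bcl2fastq, STAR 2.7.3a and mm10, while the counting program and annotation of the mouse table are not given in the sources used here. The study's methods describe a quantification pipeline for a human reference. Symbols and exon lengths were taken from GENCODE for GRCm38, in which 51745 of 56205 identifiers matched, and promoters from RefSeq (GRCm38.p6). Groups and replicate numbers came from the sample titles. Replicates were separate libraries, and for lack of an animal identifier p-values measure the spread between libraries. The library pair nearest to each other within a diet still differed by 9.48 times the sampling noise (chi-square per degree of freedom), so none was counted as a repeat.

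The 17913 genes counted (1 or more) in 12 or more libraries were fitted with edgeR 4.0.16 (quasi-likelihood, TMM, diet as the only term, R 4.3.3), with Benjamini-Hochberg adjustment over all of them. A call required that the adjusted p not exceed 0.01 and that the log2 fold change exceed 0.5 in size. All tests were two-sided. The method was tested on simulated data. CPM values were TMM-scaled. The Xist sets, divided at 1000 counts, were read from the counts and are no condition of the study. In both diets the Xist-high set held replicates 1 to 6 and the Xist-low set replicates 7 to 12, so set and replicate order cannot be told apart. The interaction of set with diet was judged at an adjusted p of 0.05. Correlations used log2(CPM + 1) residuals and 100000 permutations within diet and set. Alternatives were DESeq2 1.42.0, limma-voom 3.58.1, other scalings, filters, thresholds and designs, and each library left out. Fits without the libraries that stood apart in scaling, the interaction under other settings and the set term were added after seeing the data. The replicate numbers were shared by the diets, but the labels do not pair the mice, and no pairing was assumed.

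The 9 genes and the lists were chosen with earlier results of these data known. Named were the 9 genes, of each list up to 4 called genes with the largest change and up to 3 of those listed first, the 10 genes most like the 9, and Xist and Ddx3y. Other genes named for FFD replicate 9 were chosen after their values were seen. Total counts of 14468418 to 22112552 limit the precision of genes with few counts.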

Additional observations from a re-analysis of the deposited data

Results flagged for a closer look

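The diet effect differed between the Xist-low and the Xist-high libraries in 3 of the 9 genes, by the interaction term of the edgeR fit over 6 libraries a cell. The log2 fold change was larger in the Xist-low set by 2.44 for Cd34 (adjusted p = 0.00695), by 0.93 for Cav2 (adjusted p = 0.013) and by 0.76 for Cdh5 (adjusted p = 0.0388). All 6 Xist-low FFD libraries lay above all 6 Xist-low controls in each of these genes, a separation that 12.6% of all genes reached. Without FFD replicate 9 the differences were 1.88, 0.85 and 0.79, and the adjusted p of Cdh5 was 0.044. Over all genes 10.2% differed at the same threshold, 6.18% with the larger value in the Xist-low set and 4.04% in the other direction. The labels give no sex for a library, and the part of the endothelial, leukocyte, fibroblast and hepatocyte markers, whose sums are given above by set, was not tested.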

How the results depend on the processing

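The 5 calls among the 9 genes (Cd34, Plvap, Emcn, Sox18 and Cav2) were also made with DESeq2, limma-voom, median-of-ratios scaling, filterByExpr, no filter, and the Xist set as a covariate. The number of the 9 called higher was 8 with library totals alone, 8 when an adjusted p up to 0.05 alone was required, 1 at an absolute log2 fold change over 1 (Cd34), 0 in Xist-high libraries, and 3 to 6 with each library left out. It was 3 without FFD replicate 7 or 9 and without control replicate 1, 7, 9 or 12, when Emcn and Cav2 lost their calls. Of the 9, Cd34 did not reach 10 counts in every library and was not tested under that filter, where Cdh5 was called. With the replicate number as a block it was 3 (Cd34, Plvap and Sox18), as Emcn (adjusted p = 0.0124) and Cav2 (adjusted p = 0.024) lost their calls. The pairing that this block assumes is not given by the labels. The deviations of same-numbered libraries correlated at 0.16 to 0.58 for 11 of the 12 numbers and at −0.10 for number 9, and 2 of 12 FFD libraries correlated best with the control of their own number. For these correlations diet means alone were removed, and same-numbered libraries shared their Xist set, so positive values cannot show a pairing.

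The fold change of Cav1, not called in any fit, turned negative with the block (−0.011), in the Xist-high set (−0.053), with FFD replicate 9 left out (−0.19), with control replicate 10 left out as well (−0.18) and in the Xist-low set without FFD replicate 9 (−0.19), and it ran from −0.19 to 0.23 over the fits without 1 library. Over all genes, 2372 were higher and 894 lower. The numbers were 3827 and 226 with library totals, 3709 and 3388 when an adjusted p up to 0.05 alone was required, 520 and 158 in the Xist-high set, 1226 higher with at least 10 counts in every library, 216 lower at an absolute log2 fold change over 1, 1431 lower in the Xist-low set and 1697 lower there without control replicate 10. They ran from 2188 to 2468 higher and from 700 to 995 lower with each library left out. The genes with a diet effect that differed between the sets numbered 3 among the 9, 6 with library totals alone, and 3 to 4 without FFD replicate 9 or control replicate 10. The correlated pairs numbered 1, but 12 with diet means alone removed and 8 with library totals. The causes were not tested. Counts of 7 to 70 limit the precision of Cd34 in the controls.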

Other observations

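Lists of further cell types were read in the same fit, as values without explanation. Of 7 lymphatic endothelial genes, 1 was higher on FFD and none lower, the podoplanin gene Pdpn at 1.51 against 0.147 CPM, and in FFD replicate 9 it reached 10.8 CPM beside 0.107 to 1.73 CPM in the other FFD libraries. Prox1, the master factor of lymphatic fate that hepatocytes also express, was at 99.2 against 141 CPM (adjusted p = 0.026), and Ccl21a, a chemokine of lymphatic vessels, was at 0.469 against 0.521 CPM.

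Of 6 tested platelet or megakaryocyte genes, the chemokine Pf4 was higher (1.84 on the log2 scale, SE 0.29), and the integrin chain Itga2b was at 3.55 against 3.59 CPM. Of 7 smooth muscle genes, Des was higher (0.57, SE 0.14), which lost its call without FFD replicate 9, and the contractile genes Myh11 and Cnn1 were not called. Of 6 adipocyte genes, Cidec (2.93), Fabp4 (1.97) and Plin4 (1.82) were higher, which fat-laden hepatocytes or macrophages can express as well, whereas the defining genes Adipoq, Plin1 and Lep had 0 counts in 19, 20 and 24 of the 24 libraries. Of the endothelial lists, Car4, an enzyme of continuous capillaries, had 0 counts in 21 libraries and at most 5 in any other.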
